A study of Neotoma stephensi and Rattus norvegicus with 6 samples.

Results

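The genes described here mark the nerve cells, glia and interstitial cells of the gut wall. They are 41 mouse gene symbols, and all 41 were found among the 15481 genes counted in the foregut of each animal. The members were 4 neurofilament and peripherin genes, 11 genes of neuronal cytoskeleton, RNA binding and adhesion, 5 regulators and receptors of the enteric lineage, 7 transmitter genes, 5 vesicle and granule genes, 5 glial genes and 4 genes of interstitial cells. Foregut RNA (fornix ventricularis of the stomach) was compared between 3 female Stephens' woodrats (Neotoma stephensi) and 3 female Sprague Dawley lab rats (Rattus norvegicus). The woodrats were caught wild and fed juniper before dissection, whereas the lab rats were bought, kept for months and fed chow. Species, diet, origin and housing therefore cannot be told apart in any difference given here. The labels call every animal a virgin, and the study states that this is not known for the woodrats. Ages were not given in the sources used here. All animals were untreated, and each library came from a small section of the chamber of 1 animal.

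The enteric nervous system is a network of neurons and glia derived from the neural crest that lies between the muscle layers and under the mucosa and controls contraction, secretion and blood flow. Its progenitors depend on the RET receptor with its GFRA coreceptors, on endothelin signalling and on transcription factors such as SOX10 and HAND2. Excitatory motor neurons release acetylcholine and tachykinins, and inhibitory neurons release nitric oxide and vasoactive intestinal peptide. Interstitial cells of Cajal, marked by KIT and the chloride channel ANO1, pace the muscle, and PDGFRA-positive interstitial cells carry part of the inhibitory signal. Neurofilaments are the intermediate filaments of axons and are built from light, medium and heavy chains.

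Each library held between 5439642 and 7932637 counted reads, and values are TMM-normalized CPM (reads of a gene scaled to the effective size of its library). A count of 3 reads, taken as the detection floor, corresponded to between 0.355 and 0.586 CPM. This floor covers counting error only. Every gene in the files has at least 1 woodrat read, so a neural gene read only in lab rats could not appear here. Keratinocyte markers, which define the lining of this chamber, were abundant in every animal, while 5 enteroendocrine marker genes summed to at most 1.76 CPM in any animal. Among the 6 glandular markers Pgc, Gkn1 and Tff2 had at most 1 read in any animal, and Gkn2 had 9, 0 and 1 reads in woodrats against 0 in each lab rat. Atp4a, the parietal cell proton pump, was present in all animals, with 31, 41 and 48 reads in woodrats against 67, 59 and 35 in lab rats, where every lab rat was higher in CPM. Muc5ac had 17, 12 and 33 reads in woodrats 1, 2 and 3 against 0 in each lab rat.

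Most enteric genes had few reads in both species, and most did not pass the test. Nefh, the heavy neurofilament chain, was the large exception, at more than 100 CPM in lab rats and at the detection floor in woodrats. Nefl, the light chain, was also lower in woodrats, while Hand2, Syt1 and Gfap were higher in woodrats. Of the 41 genes, 36 reached 1 CPM in at least 3 animals and were tested. At a false discovery rate (FDR) below 0.01, 3 were higher in woodrats, where 10.3% of all 12603 tested genes were, and 2 were lower, where 9.71% were. The 5 called genes are 13.9% of those tested, against 20.0% of all tested genes in either direction, so the share lay below the background. At an FDR below 0.05, 10 were higher in woodrats, where 21.0% of all tested genes were, and 5 were lower, where 18.9% were, or 41.7% in all against a background of 39.9%. DESeq2 at an adjusted p below 0.01 called 11 of the 36, where it called 31.1% of all genes, and edgeR with the replicate number as a block called 3, where it called 5.68%. When woodrat 2 or any 1 of the lab rats was left out, Nefh and Nefl were the members called, and none was called higher in woodrats. In CPM, every woodrat lay above every lab rat for 13 members and below for 7, and the species overlapped for 21. The 20 separated members are 48.8% of 41, while 50.7% of all genes in the files and 56.2% of those tested were separated. Over all 41 members fitted without a filter on low values the median log2 fold change was 0.53, against 0.10 over all genes.

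**Figure D1:**
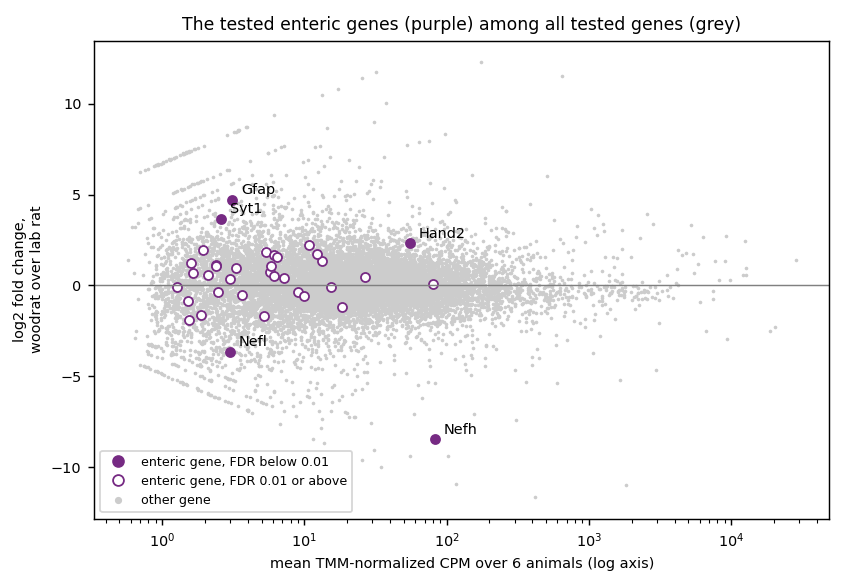
Each grey point is 1 of 12603 tested genes and each purple circle 1 of the 36 tested enteric genes, with the mean abundance over 6 animals on a log axis and the log2 fold change of woodrat over lab rat on the other. Filled circles passed an FDR of 0.01, and Nefh, at -8.48, lies far below the other enteric genes, while Gfap at 4.72 is the highest.

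Nefh (ENSMUSG00000020396.8) encodes the heavy chain, whose long tail spaces the filaments in thick axons. It had 4, 3 and 2 reads in woodrats 1, 2 and 3 against 1320, 745 and 1078 reads in lab rats 1, 2 and 3. In CPM these were 0.781, 0.416 and 0.237 in woodrats against 164, 123 and 208 in lab rats. The woodrats lay at or around the floor of 3 reads, and all lab rats lay far above it, within 1.68-fold of each other. The difference on the log2 scale was -8.48 with a standard error (SE) of 0.45 (FDR = 7.29e-05 by edgeR's quasi-likelihood test), rank 10 from the lowest among 12603 genes. From the pooled 3143 lab rat and 9 woodrat reads the lab rat level was 376-fold the woodrat level, with a 95% counting interval from 198 to 823 that leaves out the spread between animals. Nefh passed the filter on low values through the lab rats only. With any 1 of the 6 animals left out the FDR stayed below 0.01, with a log2 fold change from -8.93 to -8.12.

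The other neurofilament genes did not share the size of this difference. Nefl (ENSMUSG00000022055.7), the light chain that every neurofilament needs, had 0.195, 0.555 and 0.474 CPM in woodrats against 6.83, 6.62 and 3.27 CPM in lab rats. All woodrats were again near the floor, with 1, 4 and 4 reads, and all lab rats were above them. Its log2 fold change came to -3.66 (SE of 0.54, FDR = 0.00184), and it too passed the filter through the lab rats only. Its pooled reads gave a 13.4-fold higher level in lab rats, with a counting interval from 6.81 to 30.1 that leaves out the spread between animals. Nefm, the medium chain, had 1.37, 1.11 and 0.829 CPM in woodrats against 2.36, 1.98 and 1.54 CPM in lab rats. The species did not overlap for Nefm, but the log2 fold change of -0.86 (FDR = 0.151) did not pass the test. Prph encodes peripherin, the filament protein typical of peripheral and enteric neurons, and had 11.5, 6.52 and 5.69 CPM in woodrats against 9.31, 13.1 and 13.1 CPM in lab rats. Its values overlapped, with a log2 fold change of -0.59 (FDR = 0.225).

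**Figure D2:**
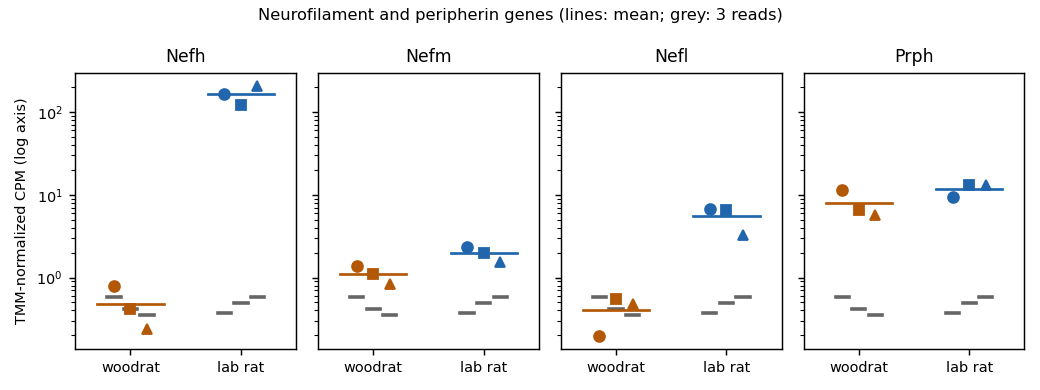
CPM on a log axis for Nefh, Nefm, Nefl and Prph in 3 woodrats (orange) and 3 lab rats (blue), with circles, squares and triangles for animals 1, 2 and 3, a line at each mean and a grey dash at the CPM of 3 reads in that library. Nefh spans from 0.237 to 208 CPM, whereas Prph stays between 5.69 and 13.1 CPM.

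Nefh was therefore set against other neuronal genes within each animal. The log2 ratio of Nefh to Nefl, each with 0.5 CPM added, was 0.09 ± 0.69 in woodrats against 4.80 ± 0.87 in lab rats (SD, n = 3 each). The ratio thus differed by -4.71 between the species, although Nefl itself was lower in woodrats. Against Nefm the difference was -6.79, against Prph -6.81, against Uchl1 -7.22, against Tubb3 -7.42 and against Map1b -9.23. For each of the 6 partners all 3 woodrats had a lower ratio than all 3 lab rats. The values of Nefh alone fix this order, so the ratios give sizes and are no further test of Nefh. Woodrat Nefh, at 0.781, 0.416 and 0.237 CPM, was about as large as the added 0.5 CPM, so the sizes depend on that addition. In woodrats the ratio to Nefl set 9 reads in total against 9, all near the floor. An exact permutation test could not go below p = 0.1 with groups of 3. In direction, Nefh did not stand alone. Every woodrat lay below every lab rat for 7 members, namely Nefh, Nefl, Nefm, Phox2a, Gfra2, Chgb and S100b, and above for 13. Phox2a was at or under the floor in every library. Of these 7 members only Nefh and Nefl passed the FDR of 0.01 by edgeR. Nefl met the filter through the lab rats only, and its FDR by edgeR was 0.00184, or 0.0122 with the replicate block. In size the Nefh log2 fold change of -8.48 lay outside the range of the other 35 tested members, which ran from -3.66 to 4.72. Reads were aligned to mouse transcripts, and how completely woodrat Nefh reads align to the mouse transcript was not analysed here.

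The genes of the neuronal cytoskeleton, RNA binding and adhesion held no member past the threshold among the 10 tested by edgeR, while 5 had an unadjusted p below 0.05 and DESeq2 called 4. Tubb3, the neuron-typical beta tubulin, took the most reads, without regard to gene length, with 102, 56.6 and 85.0 CPM in woodrats against 72.8, 82.5 and 79.4 CPM in lab rats. Its log2 fold change came to 0.05 (SE of 0.26, FDR = 0.893). Uchl1, the ubiquitin hydrolase also called PGP9.5 that is used to stain enteric nerves, had 23.0, 12.1 and 9.83 CPM in woodrats against 16.8, 14.9 and 16.4 CPM in lab rats, with a log2 difference of -0.10 (SE of 0.36, FDR = 0.838). For both genes the lab rats fell within the range of the woodrats. Stmn2, a microtubule regulator of growing axons, had 7.16 ± 1.28 CPM (SD, n = 3) in woodrats against 5.01 ± 0.68 CPM in lab rats (FDR = 0.228). Gap43, a growth cone protein, had 2.96 ± 1.18 CPM in woodrats against 4.29 ± 0.87 CPM in lab rats (FDR = 0.313).

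A second set of genes in this group had higher means in woodrats. Map1b, a microtubule-associated protein of axons, had 26.0, 18.3 and 12.2 CPM in woodrats against 4.84, 10.4 and 1.93 CPM in lab rats (log2 fold change 1.70, FDR = 0.0393). Rtn1, a reticulon of the neuronal endoplasmic reticulum, had 10.7, 9.16 and 7.82 CPM in woodrats against 2.23, 5.13 and 1.35 CPM in lab rats (log2 fold change 1.66, FDR = 0.0260). Ncam1, a neural adhesion molecule also made by some muscle and immune cells, had 5.86, 12.2 and 7.23 CPM in woodrats against 3.10, 2.81 and 0.963 CPM in lab rats (log2 fold change 1.85, FDR = 0.0195). In these 3 genes the species did not overlap and lab rat 3 was the lowest animal. L1cam, an axon adhesion molecule, spread from 5.08 CPM in woodrat 1 through 16.7 in woodrat 2 to 31.3 in woodrat 3, against 5.09, 3.97 and 2.31 CPM in lab rats 1, 2 and 3 (log2 fold change 2.21, FDR = 0.0227). Woodrat 1 lay just below lab rat 1, so the species overlapped. DESeq2 called Map1b, Rtn1, Ncam1 and L1cam, with adjusted p-values from 0.00175 to 0.00960. The neuronal RNA-binding genes had few reads, with Elavl2 at 2.25 ± 0.41 CPM in woodrats against 0.928 ± 0.472 in lab rats (FDR = 0.0843) and Elavl4 at 2.06 ± 0.36 and 1.25 ± 0.55 (FDR = 0.273). Elavl3, from 0 to 5 reads in every library, was not tested.

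Among the regulators and receptors of the enteric lineage, Hand2 (ENSMUSG00000038193.3) was the member that passed the test. Hand2 is a transcription factor that enteric neurons need to differentiate and that other cells of mesodermal and neural crest origin also make. It had 126, 107 and 41.9 CPM in woodrats against 12.0, 18.5 and 24.7 CPM in lab rats, and every woodrat lay above every lab rat. The log2 fold change came to 2.32 (SE of 0.45, FDR = 0.00503), and with 1 animal left out it passed in 1 of 6 cases, with an FDR up to 0.0212. With the replicate block the FDR was 0.0299. Summed smooth muscle markers ran in the same order as Hand2 within each species, from 125227 through 60485 to 40952 CPM in woodrats 1, 2 and 3 and from 11273 through 18986 to 20530 CPM in lab rats 1, 2 and 3. Per 10000 smooth muscle marker reads Hand2 had 10.1, 17.8 and 10.2 reads in woodrats against 10.7, 9.76 and 12.0 reads in lab rats, so that the species overlapped on this scale. The part of muscle content in the Hand2 difference was not tested further.

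Ret encodes the receptor for the GDNF family ligands, and it had 1.76, 2.22 and 5.80 CPM in woodrats against 2.11, 2.15 and 0.385 CPM in lab rats, which overlapped (FDR = 0.234). Its coreceptors pointed in opposite directions. Gfra1, which binds GDNF, had 3.12, 3.05 and 3.20 CPM in woodrats against 0.496, 1.65 and 0.193 CPM in lab rats (log2 fold change 1.97, FDR = 0.0340). Gfra2, which binds neurturin, had 3.91, 2.78 and 0.948 CPM in woodrats against 7.69, 9.10 and 6.93 CPM in lab rats (log2 fold change -1.67, FDR = 0.0277). The species did not overlap for either gene, and neither passed the threshold of 0.01, although DESeq2 gave Gfra2 an adjusted p of 0.00704. Phox2a, a lineage-defining homeobox factor, had 1, 1 and 2 reads in woodrats against 3, 2 and 2 in lab rats, at or under the floor in every library. A difference in Phox2a was not detectable at this depth.

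**Figure D3:**
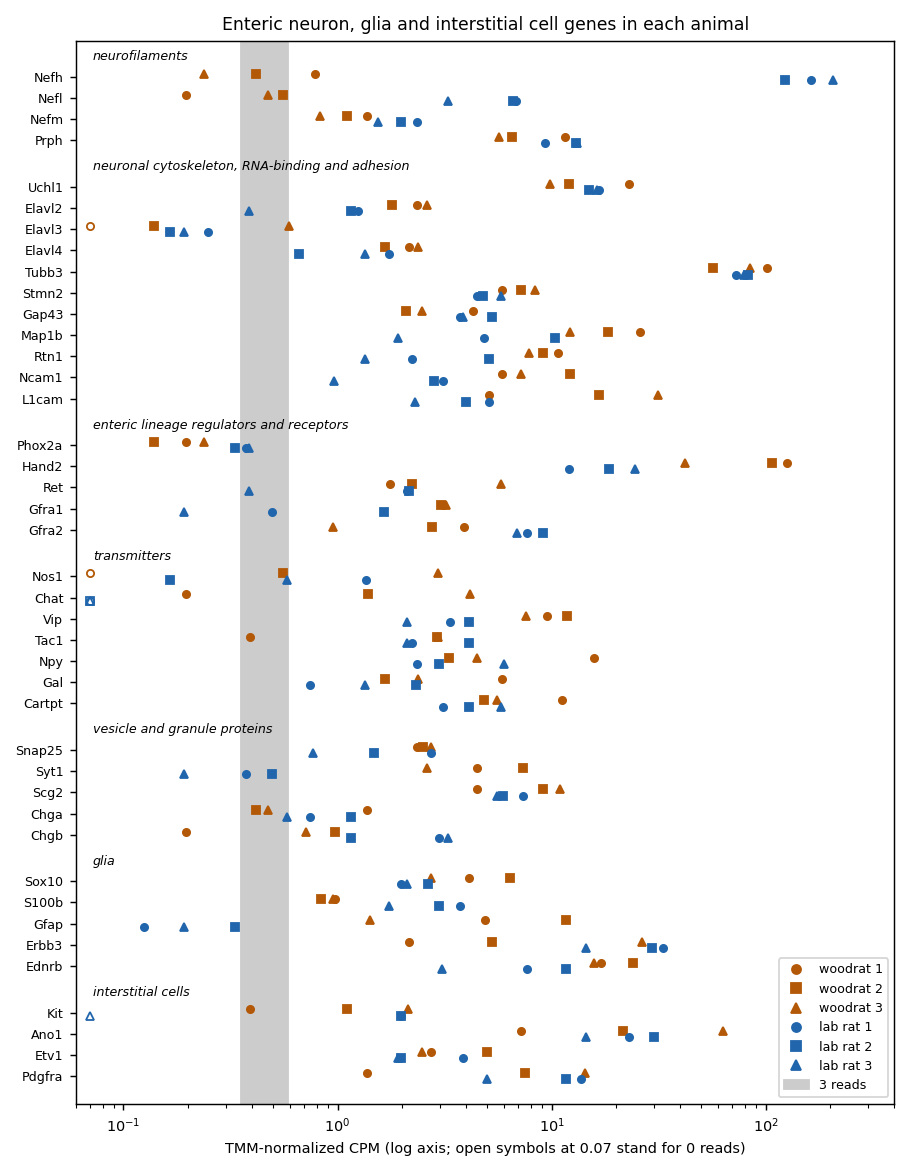
CPM of all 41 genes in every animal on a log axis, grouped by role, with woodrats in orange above lab rats in blue and a grey band at the CPM of 3 reads (0.355 to 0.586). Open symbols at the left edge stand for 0 reads, which for Chat are the 3 lab rats drawn over each other, and 30 of the 41 genes have a mean under 10 CPM in both species.

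Of the 7 transmitter genes 5 were tested and none passed the threshold of 0.01 by edgeR, while 1 had an unadjusted p below 0.05 and was called by DESeq2. That gene was Vip, vasoactive intestinal peptide, with 9.57, 11.8 and 7.58 CPM in woodrats against 3.35, 4.14 and 2.12 CPM in lab rats. Every woodrat was above every lab rat (log2 fold change 1.58, SE 0.38, FDR = 0.0121), and DESeq2 gave an adjusted p of 0.00206. Npy, neuropeptide Y, had 15.8, 3.33 and 4.501 CPM in woodrats against 2.36, 2.98 and 5.97 in lab rats (FDR = 0.223). Without woodrat 1 its log2 fold change went from 1.06 to 0.08, so that 1 animal held most of the difference. Gal and Cartpt, the peptides galanin and CART, were also highest in woodrat 1, at 5.86 and 11.1 CPM, and overlapped between the species (FDR = 0.175 and 0.219). Tac1, the substance P precursor, had 0.391, 2.91 and 2.96 CPM in woodrats against 2.23, 4.14 and 2.12 in lab rats (FDR = 0.658).

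The enzymes that mark the 2 main motor neuron classes had too few reads to test. Chat makes acetylcholine, and it had 1, 10 and 35 reads in woodrats 1, 2 and 3 against 0 in each lab rat. Set against a floor of 3 reads per library, the woodrat mean of 1.91 CPM was at least 3.96-fold higher, although woodrat 1 was itself under that floor. Without woodrat 3 the bound was 1.64-fold. Nos1, the neuronal nitric oxide synthase, had 0, 4 and 25 reads in woodrats against 11, 1 and 3 in lab rats. Most of the woodrat reads of both genes came from woodrat 3.

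Among the vesicle and granule proteins 4 genes were tested and 1 passed. Syt1 (ENSMUSG00000035864.13), the calcium sensor of transmitter release, had 4.49, 7.36 and 2.61 CPM in woodrats against 0.372, 0.496 and 0.193 CPM in lab rats. The lab rats had 3, 3 and 1 reads, and every woodrat was clearly above them. The log2 fold change came to 3.67 (SE of 0.61, FDR = 0.00283), it passed the filter through the woodrats only, and with 1 animal left out its FDR was below 0.01 in 2 of 6 cases and at most 0.0142. Snap25, which works with Syt1 in membrane fusion, had 2.34, 2.50 and 2.72 CPM in woodrats against 2.73, 1.49 and 0.770 in lab rats (FDR = 0.396). The granins of dense-core granules varied in direction. Scg2 had 8.18 ± 3.31 CPM in woodrats against 6.29 ± 0.92 in lab rats (FDR = 0.453). Chgb had 0.195, 0.972 and 0.711 CPM in woodrats against 2.98, 1.16 and 3.27 in lab rats (log2 fold change -1.88, FDR = 0.0402), without overlap. With 1, 7 and 6 reads in woodrats against 24, 7 and 17 in lab rats, Chgb passed the filter through the lab rats only. Chga, at 0.752 ± 0.533 and 0.827 ± 0.299 CPM, was not tested.

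The glial genes also differed from one another in direction. Gfap (ENSMUSG00000020932.13), an intermediate filament of glia, had 25, 84 and 12 reads in woodrats against 1, 2 and 1 in lab rats, or 4.88, 11.7 and 1.42 CPM against 0.124, 0.331 and 0.193 CPM. All lab rats were under the floor and all woodrats above it, though the woodrats themselves spread 8.20-fold. The log2 fold change of 4.72 (SE of 0.94, FDR = 0.00567) was the highest of the tested members. The pooled reads gave a 28.1-fold higher woodrat level, with a counting interval from 10.7 to 105 that leaves out the spread between animals. Gfap passed the filter through the woodrats only and with 1 animal left out stayed below an FDR of 0.01 in 2 of 6 cases. S100b, a calcium-binding protein of glia and other cells, had 0.977, 0.833 and 0.948 CPM in woodrats against 3.72, 2.98 and 1.73 CPM in lab rats. S100b thus lay lower in every woodrat (log2 fold change -1.62, FDR = 0.0238), the opposite direction to Gfap. Sox10, the transcription factor that defines neural crest glia, had 4.10, 6.38 and 2.72 CPM in woodrats against 1.99, 2.65 and 2.12 CPM in lab rats. It had a log2 fold change of 0.96 (FDR = 0.111), between those of S100b and Gfap.

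Ednrb, the endothelin receptor of enteric progenitors, had 17.0, 24.0 and 15.8 CPM in woodrats against 7.69, 11.7 and 3.08 CPM in lab rats (log2 fold change 1.32, FDR = 0.0467). Erbb3 is the neuregulin receptor of glia and of many epithelia. It had 2.15, 5.27 and 26.4 CPM in woodrats against 33.0, 29.4 and 14.4 CPM in lab rats, a 12.3-fold spread among woodrats. Without woodrat 3 its log2 fold change was -2.75 with an FDR of 0.00471, against -1.16 and 0.252 with all animals.

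No interstitial cell gene passed the test, at either 0.01 or an unadjusted p of 0.05, by edgeR or by DESeq2 at 0.01. Kit, the receptor of interstitial cells of Cajal and also of mast cells and melanocytes, had 2, 8 and 18 reads in woodrats against 16, 12 and 0 in lab rats. From the pooled reads the lab rat level was 1.08-fold that of woodrats, with a counting interval from 0.614 to 1.89 that leaves out the spread between animals. By edgeR, which takes in that spread, the Kit log2 fold change was -0.12 with an SE of 0.88 (FDR = 0.929). Ano1, the calcium-activated chloride channel of these cells and of several epithelia, had 7.23, 21.7 and 63.0 CPM in woodrats against 23.0, 30.3 and 14.4 CPM in lab rats (log2 fold change 0.45, SE 0.65, FDR = 0.612). Pdgfra, found on interstitial cells and fibroblasts, had 1.37, 7.49 and 14.3 CPM in woodrats against 13.8, 11.7 and 5.01 CPM in lab rats (FDR = 0.688). Etv1, a transcription factor of interstitial cells of Cajal, had 3.41 ± 1.38 CPM in woodrats against 2.59 ± 1.09 CPM in lab rats (FDR = 0.551). With standard errors from 0.47 to 0.88 on the log2 scale, a difference in either direction could have been missed. The mast cell markers summed to between 0 and 9.80 CPM and the melanocyte markers to at most 7.36 CPM in any animal. Of the 3 melanocyte genes the pigment genes Dct and Pmel had fewer reads in every woodrat, with 0, 0 and 1 reads against 16, 15 and 20 for Dct and 0, 0 and 3 against 8, 6 and 8 for Pmel. Mitf, their transcription factor, which other cells also make, had the opposite direction, with 32, 53 and 34 reads in woodrats against 27, 19 and 10 in lab rats.

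**Figure D4:**
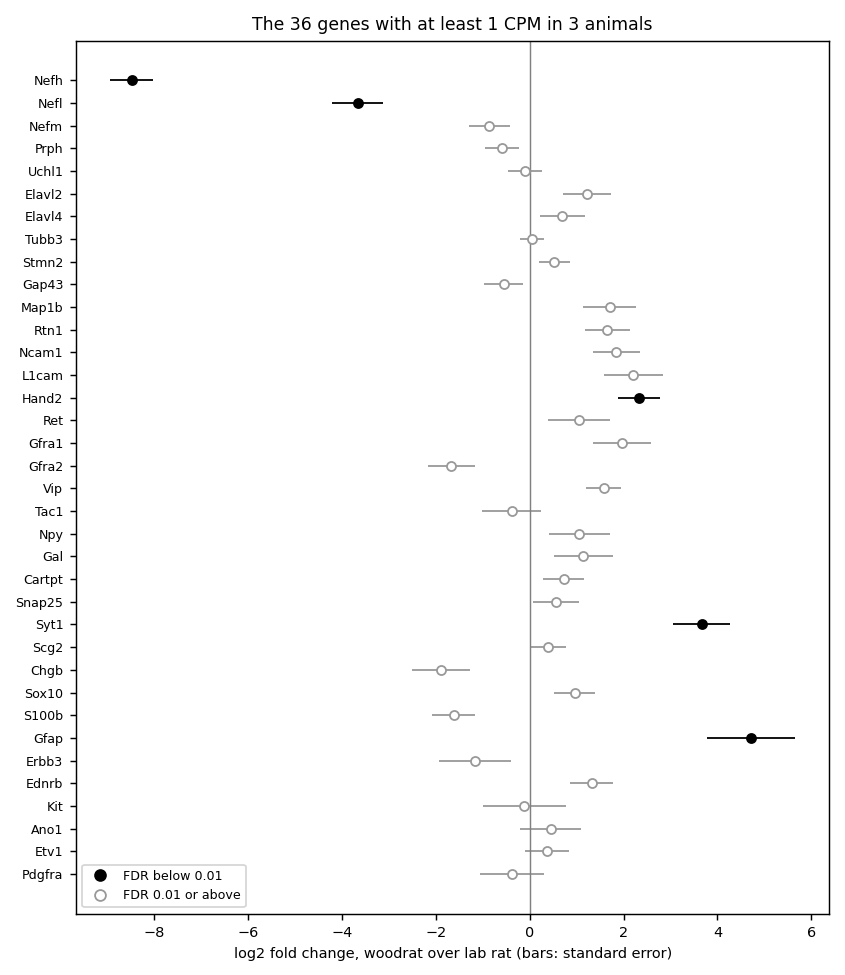
Log2 fold change of woodrat over lab rat with its standard error for the 36 tested genes, ordered by role. Filled points passed an FDR of 0.01, with Nefh (-8.48) and Nefl (-3.66) on the lab rat side and Hand2 (2.32), Syt1 (3.67) and Gfap (4.72) on the woodrat side.

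The woodrats differed among themselves in many members, and in many other genes as well. In 13 of the 41 genes (31.7%, against 26.8% of all tested genes) woodrat 1 was lowest and woodrat 3 highest with woodrat 2 between them, among them Ano1, Pdgfra, Erbb3, Kit, L1cam, Ret, Chat and Nos1. In 8 genes (19.5%, against 25.4%) the order was the reverse, among them Prph, Uchl1, Map1b, Rtn1 and Hand2. Woodrat 1 was the lowest woodrat for 16 members (39.0%) and for 39.1% of all tested genes. Summed markers of the surrounding tissue also differed among the woodrats. All 8 keratinocyte genes were measured, and their summed level was 18089, 37998 and 47968 CPM in woodrats 1, 2 and 3 against 15817, 17890 and 22780 CPM in lab rats, while Trp63, their defining transcription factor, had 3.32, 11.4 and 100.6 CPM in woodrats against 87.5, 80.1 and 35.8 CPM in lab rats. Of 11 smooth muscle markers listed, Actg2 and Acta2 were not among the genes counted, so every smooth muscle sum here holds 9 genes. In woodrats that sum ran opposite to the keratinocyte sum, with the values given beside Hand2. So did 8 of the 9 genes singly, while Myl9 was lowest in woodrat 2. Their part in the differences between members was not tested. Lab rat 3 was the lowest lab rat for 23 members (56.1%), and for 46.1% of all tested genes. Without woodrat 1 and lab rat 3, an alternative chosen after seeing the data, Nefh, Nefl and L1cam were called.

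**Figure D5:**
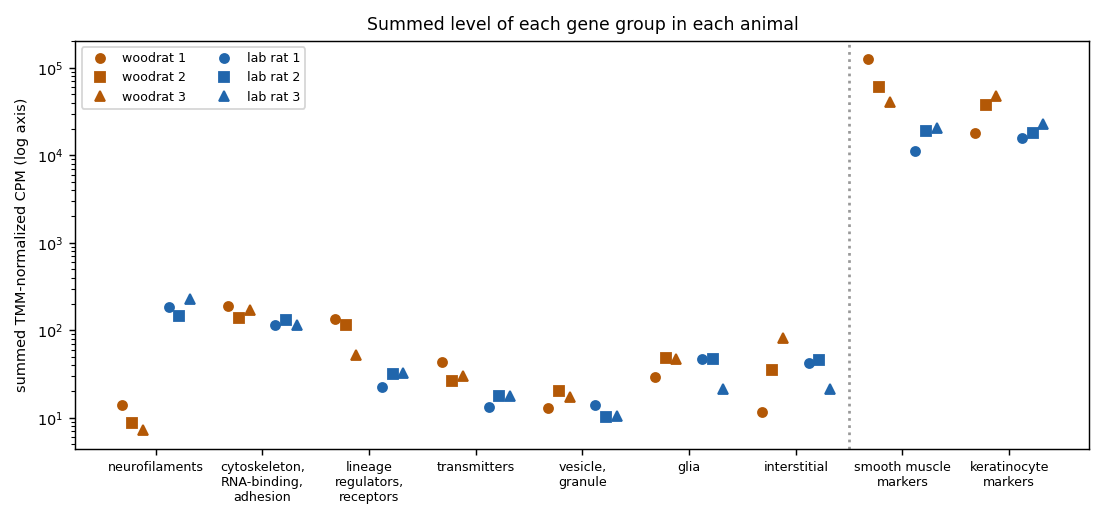
Summed CPM of each role group, and of smooth muscle and keratinocyte markers right of the dotted line, in each animal on a log axis. Neurofilament sums are 7.23 to 13.9 CPM in woodrats against 145 to 225 in lab rats, and interstitial sums in woodrats spread from 11.7 to 82.0 CPM.

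The direction of the summed members depended on what they were set against and on Hand2. Summed over the 40 members other than Nefh, the level was 432, 392 and 406 CPM in woodrats against 274, 306 and 236 in lab rats, so every woodrat was higher. Without Hand2 as well, an alternative chosen after seeing the data, the other 39 members summed to 306, 285 and 364 CPM in woodrats against 262, 288 and 211 in lab rats, and woodrat 2 lay below lab rat 2. Per 10000 reads of smooth muscle markers, the 40 members had 34.5, 64.8 and 99.1 reads in woodrats against 243, 161 and 115 in lab rats, so every woodrat was lower. Smooth muscle markers were 4.46-fold higher in woodrats by their mean sum, with 3 of the 9 genes past the FDR of 0.01, so this scale lowers the woodrat values of every gene. By CPM 26 of the 41 members (63.4%) had a higher mean in woodrats, against 51.1% of all tested genes. Per smooth muscle read 6 members (14.6%) did, against 8.35% of all tested genes, namely L1cam, Hand2, Gfra1, Chat, Syt1 and Gfap. Per smooth muscle read Prph had 0.920, 1.08 and 1.39 per 10000 in woodrats and 8.26, 6.88 and 6.38 in lab rats, and Uchl1 had 1.84, 2.00 and 2.40 against 14.9, 7.84 and 7.97. Nefh kept its direction on both scales, with 0.0624, 0.0688 and 0.0578 reads per 10000 in woodrats and 145, 64.9 and 101.1 in lab rats. Syt1 and Gfap, with 1 to 3 reads in each lab rat, were higher in every woodrat on both scales. For Syt1 per smooth muscle read, woodrat 1 at 0.359 per 10000 lay just above lab rat 1 at 0.330. Lab rat 1 had 3 Syt1 reads, so that order is within counting error. In sections of bulk tissue, fewer cells of a type and less RNA per cell cannot be told apart.

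Further genes of the same pathways came from lists of 78 genes in the files, of which 52 were tested. At an FDR below 0.01, 9 were higher and 3 lower in woodrats, or 23.1% of those tested against 20.0% of all genes. The 12 calls became 6 with library totals in place of TMM, and between 1 and 7 when any animal other than woodrat 3 was left out. Among synapse and axon genes 5 of 22 passed. Those higher in woodrats included Dpysl3, Thy1 and Scg5, with log2 fold changes of 2.81, 1.75 and 2.38. Sncg, gamma-synuclein, had 26.4, 11.4 and 7.34 CPM in woodrats against 87.9, 68.1 and 162 CPM in lab rats, and was lower in every woodrat (log2 fold change -2.83, SE 0.52, FDR = 0.00429). Of 5 tested genes of enteric neuron identity only Nmu, the peptide neuromedin U, passed, with 2.86 ± 1.73 CPM in woodrats against 14.1 ± 0.8 in lab rats (log2 fold change -2.29, FDR = 0.00471). Calb1, Calb2 and Pspn were on the lists and were not analysed here.

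Of 9 tested glia and Schwann cell genes 4 passed. Ngfr, the low-affinity neurotrophin receptor, had 33.0, 8.47 and 11.4 CPM in woodrats against 1.49, 1.32 and 0.578 CPM in lab rats (log2 fold change 3.89, FDR = 0.00281). Cdh19 and Pmp22, both made by Schwann cells and other crest-derived glia, were also higher in woodrats, with log2 fold changes of 2.85 and 1.51. Entpd2, an ectonucleotidase of enteric glia, was lower, with 7.19 ± 2.26 CPM in woodrats against 24.7 ± 1.8 in lab rats (log2 fold change -1.78, FDR = 0.00366). Glial genes past the threshold thus included both directions. None of this list was called when any 1 lab rat was left out, and 1 was called with the replicate block. Of 7 tested interstitial genes Gucy1a3, a subunit of the nitric oxide receptor, passed (log2 fold change 1.94, FDR = 0.00853). Its mean was 3.89-fold higher in woodrats, beside 4.46-fold for the summed smooth muscle markers, and the part of muscle content was not tested. Thbs4 also passed, with 6, 22 and 12 reads in woodrats against 0 in each lab rat, and met the filter through the woodrats only. Against the floor of 3 reads per library it was at least 3.90-fold higher, or 2.69-fold without woodrat 2. No gene of this interstitial list was called with library totals in place of TMM or with the replicate block. Among the ligands of the member receptors none of 9 passed at 0.01 by edgeR. Of these 9 genes, 5 had an unadjusted p below 0.05 by edgeR, and DESeq2 called 2. The woodrat mean of Kitl, the ligand of KIT, was higher at a log2 fold change of 2.32 (FDR = 0.0292), while Nrtn, the ligand of GFRA2, had a log2 fold change of -1.24 (FDR = 0.0531), and neither passed the threshold.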

How the data were processed

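Libraries of polyadenylated RNA were stranded. Per the study's methods, the authors trimmed reads (Trimmomatic), joined overlapping mates (FLASH) and aligned them to mouse transcripts of GENCODE M7 using cross_match, and what they deposited is 1 table per animal of raw counts of uniquely assigned reads for every mouse gene. The labels name the build mm9, and no coordinates were used here. Samples were grouped by the species in their labels. Genes reaching 1 CPM in 3 or more animals were tested in R 4.3.3 with edgeR 4.0.16 (TMM factors, quasi-likelihood F-test as before edgeR 4, species as the only term, prior count 0.125, Benjamini-Hochberg adjustment over all tested genes, FDR below 0.01 as in the study). Standard errors are the log2 fold change divided by the square root of F. Counting intervals are exact binomial (Clopper-Pearson) on reads pooled over animals and leave out the spread between animals. Animals were assumed to be independent replicates. The code was tested on simulated counts. The members and lists were chosen with earlier results of these data known. All members may be named, and genes of the other lists where called, at most 6 a list. Kitl, Nrtn, Trp63, Myl9, Actg2, Acta2 and the glandular and melanocyte genes were named after their values were seen or as defining markers. Alternatives included DESeq2 1.42.0, other scalings and filters, a replicate block and each animal left out. Levels per gene length were not compared, since no gene lengths or sequences were used here. Ratios and sums of genes were taken without regard to length. Some genes of the other lists are not reported here.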

Additional observations from a re-analysis of the deposited data

How the results depend on the processing

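Nefh kept its direction and an FDR below 0.01 under every alternative run, and its ratios to the 6 partners kept their direction. The count of members past the threshold was 5, with 3 higher and 2 lower in woodrats. It was 5 with DESeq2's size factors, total counts, no filter and the quasi-likelihood method of edgeR 4. A filter at 5 CPM left 17 members, with 2 called, 1 in each direction. DESeq2 called 11, with 8 higher, and an FDR below 0.05 called 15, with 10 higher and 5 lower. Leaving out each animal gave 2 to 6 members, 0 to 3 of them higher and 2 to 3 lower in woodrats; woodrat 2 and each of the 3 lab rats, when left out, took the higher calls to 0. Without woodrat 1 and lab rat 3 together, 3 were called, with 1 higher. With the replicate block 3 were called, Nefh, Gfap and Syt1, with 2 higher and 1 lower. Animals of the same number deviated from their species means with correlations of -0.289, -0.0881 and -0.279, none of them positive. With 3 animals per species, these values cannot decide whether the replicate numbers pair the animals. The 12 calls in the other lists became 6 with total counts, 2 with the replicate block, 6 without woodrat 1 and lab rat 3, 20 at an FDR below 0.05, and 1 to 13 with 1 animal left out (all but woodrat 3 moved it by more than 1.5 times). The causes were not tested.

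Signs turned for members that never passed. Tubb3 went to -0.16 without woodrat 1 and lab rat 3, and Ano1 to -0.042 with the replicate block. With 1 animal left out the log2 fold change ran from -0.55 to 0.13 for Uchl1, -0.14 to 0.21 for Tubb3, -0.70 to 0.057 for Tac1, -0.80 to 0.29 for Kit, -0.63 to 0.91 for Ano1, -0.051 to 0.80 for Etv1 and -1.16 to 0.093 for Pdgfra. At these depths genes under about 1 CPM could not be compared.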
